A study of Mus musculus with 27 samples.

Results

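The effect of a non-specific antibody on the mouse cortex was examined in 10 of the 27 RNA sequencing libraries of the series, the cortices labelled mIgG (titles ending crtx_IgG, 5 mice) and the cortices labelled PBS (titles ending crtx_PBS, 5 mice). The mice were male C57Bl/6J wild types aged 8 weeks at the start, with no transgene or deletion in either group. Each received either control human IgG or PBS from an osmotic pump into the right lateral ventricle, at 0.25 µl per hour for 14 days. The study names the tissue as the hemisphere opposite the cannula. Its methods name the control IgG as a pool from healthy subjects' serum, whereas the sample labels describe a human monoclonal IgG without reactivity. Both groups carried a pump, a cannula and 14 days of infused fluid, so the comparison holds the surgery constant and varies the IgG. Mice are named below by the number in their title, 14, 32, 33, 38 and 74 for PBS and 10, 11, 15, 37 and 75 for control IgG. The labels do not say what the number stands for, and it is read here as the mouse.

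IgG in the brain is bound by Fc receptors of microglia and perivascular macrophages, is moved across vessel walls by the neonatal Fc receptor, and can fix complement when it is bound to a surface. A reaction to foreign antibody would be read in microglial, complement, interferon and antigen presentation genes and in astrocytes. Immediate early genes follow another logic, since neurons transcribe them within minutes of synaptic activity, and their level in a dissected cortex also follows arousal, handling and the interval before freezing.

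The libraries held 30352765 to 37034675 counts in PBS and 19385642 to 42698201 in control IgG, the lowest being mouse 11. Every pair of libraries within a group differed by more than sampling noise. The labels give the cell type as neurons, but the tissue was whole cortex, and the astrocyte gene Apoe averaged 1457 CPM (counts scaled to a common library size) and the myelin gene Mbp 1546 CPM in PBS. The PBS library of mouse 38 stood farthest from the rest on the first principal component, which held 25.9% of the variance, and its lists of reactive astrocyte, complement and MHC class I genes were the highest of the PBS group. Mouse numbers under 20 were unequally spread, with 3 of 5 control IgG mice and 1 of 5 PBS mice, and the labels do not name the number as a batch.

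No gene passed the test for a difference between control IgG and PBS. Of 20271 genes tested with edgeR's quasi-likelihood test, 0 were called up and 0 down (0% in each direction) when a call needed a fold change above 2 with a Benjamini-Hochberg adjusted p under 0.05, and 0 reached the adjusted p alone. The smallest adjusted p was 0.399. DESeq2 on the same counts gave 11 genes at an adjusted p under 0.05, each under 2-fold. At an unadjusted p under 0.05 edgeR gave 1650 genes, 8.14% of those tested, of which 778 (3.84%) were higher and 872 (4.3%) were lower in control IgG. The median log2 fold change of all tested genes was -0.0027, and 49% of genes were above 0. All statements on gene groups below are set against these shares, and "higher" or "lower" there means an unadjusted p under 0.05 that did not survive adjustment over all genes.

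The size of effect that these 10 cortices allow depended on how strongly a gene was expressed. Over all tested genes the 95% interval of the log2 fold change reached a median of 0.247 to either side of its centre, a factor of 1.19. For the 2364 genes at 100 CPM and over this distance was 0.133, a factor of 1.10, and for the 7820 genes between 10 and 100 CPM it was 0.150. For the 4978 genes between 0.1 and 1 CPM it was 0.734, a factor of 1.66. The interval lay wholly inside a 2-fold change in either direction for 84.4% of tested genes and inside a 1.5-fold change for 66.5%. Among genes at 100 CPM and over these shares were 99.4% and 97.8%, and between 0.1 and 1 CPM they were 48.3% and 6.33%. The limits on rare transcripts were correspondingly loose, as for most of the chemokine genes described below.

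**Figure D1:**
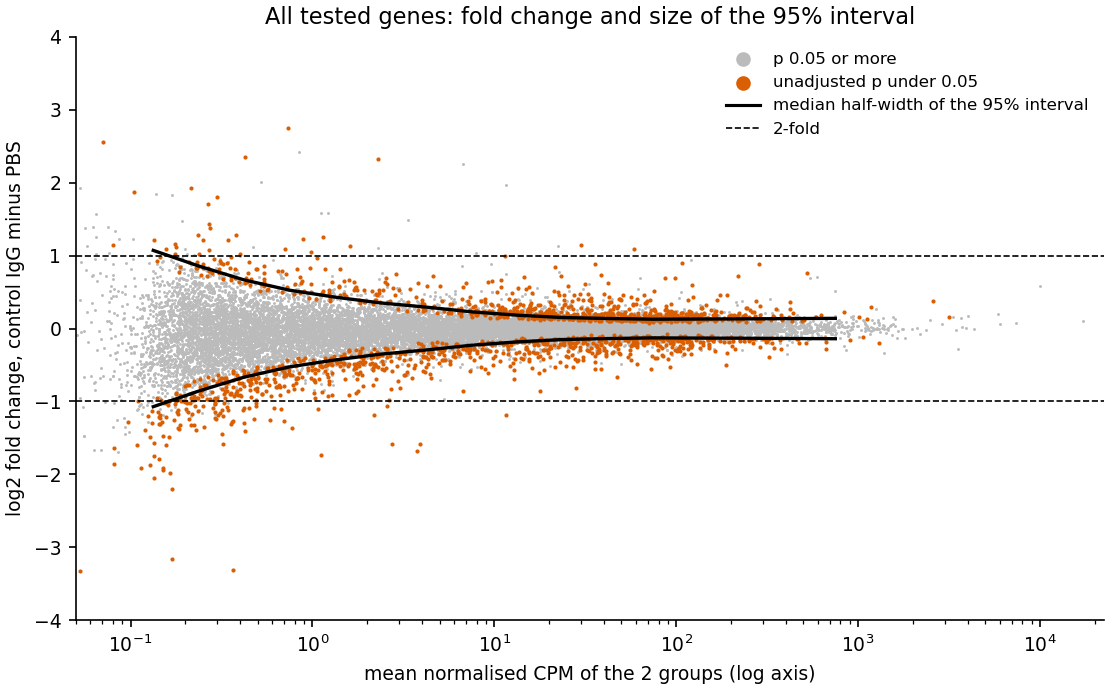
Log2 fold change of control IgG over PBS (vertical axis) against the mean normalised CPM of both groups (horizontal log axis) for tested genes, each a point, with genes at unadjusted p under 0.05 in orange. Black lines mark the median distance from the centre to the edge of the 95% interval, about 0.133 at 100 CPM and over and 0.734 between 0.1 and 1 CPM, and dashed lines mark 2-fold. Points below 0.05 CPM or beyond 4 log2 units are not drawn.

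Immediate early genes leaned towards control IgG. Of 20 members, 10 were higher in control IgG and 0 lower (background 3.84% and 4.3%), 19 had a positive log2 fold change, and the list's median was 0.57 against -0.0027 for all genes. The 10 were the transcription factor genes Fos, Junb, Egr2, Egr4, Nr4a1 and Ier2, the regulator Ier5, the synaptic cytoskeletal gene Arc, and Dusp1 and Dusp6, which encode phosphatases that switch off MAP kinases. None passed adjustment over all genes, with 0.399 the smallest adjusted p by edgeR.

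Fos, the AP-1 subunit used as a marker of recently active neurons, was at 78.5, 107, 111, 45.5 and 34.4 CPM in PBS mice 14, 32, 33, 38 and 74 and at 129.5, 234, 111, 86.5 and 142 CPM in control IgG mice 10, 11, 15, 37 and 75. The groups overlapped, with PBS mice 32 and 33 above control IgG mouse 37, and the log2 fold change was 0.90 (95% interval 0.28 to 1.52). Junb, another AP-1 subunit, was at 167, 235, 235, 97.5 and 95.3 CPM in the PBS mice in the same order and at 274, 385, 239.5, 199 and 271 CPM in the control IgG mice, a log2 fold change of 0.72 (0.27 to 1.17). In both genes PBS mice 38 and 74 were the lowest of the 10 cortices and control IgG mouse 11 was the highest.

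Nr4a1, an orphan nuclear receptor induced by calcium entry, was at 276, 228, 279, 126 and 87.8 CPM in PBS and 361, 542, 351, 262 and 332 CPM in control IgG (log2 fold change 0.89, 0.35 to 1.43). Arc, whose protein removes AMPA receptors from synapses, was at 571, 448, 568, 204 and 153 CPM in PBS and 717, 1006, 593, 377 and 613 CPM in control IgG (log2 fold change 0.77, 0.10 to 1.43). Dusp6 was at 113, 116, 125, 75.4 and 58.1 CPM in PBS and 165, 176, 136, 129 and 130.2 CPM in control IgG (log2 fold change 0.59, 0.26 to 0.93). Dusp6 was the member of the list whose groups did not overlap, every control IgG cortex lying above every PBS cortex, a pattern that 0.755% of all tested genes also showed. Nr4a1 and Arc overlapped through control IgG mouse 37, which lay below 2 PBS mice for Nr4a1 and below 3 for Arc.

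The list was not uniform. Egr2, a zinc finger factor, had the highest log2 fold change of the list at 1.09 (0.29 to 1.89), and PBS mouse 74 was far below the other 9 cortices at 5.88 CPM against 19.9 CPM in the next lowest, PBS mouse 38. Egr1, a zinc finger factor of the same family, was at 1059, 574, 712, 486 and 221 CPM in PBS and 965, 993, 923, 869 and 620.0 CPM in control IgG, and its highest cortex was PBS mouse 14 (log2 fold change 0.52, -0.06 to 1.10). Npas4, which responds to calcium entry in neurons alone, gave 0.17 (-0.39 to 0.73), and Nr4a2 was the member with a negative value, -0.15 (-0.63 to 0.34). The remaining members Fosb, Fosl2, Jun, Egr3, Nr4a3, Btg2 and Klf4 lay between 0.25 and 0.70, each with an interval that included 0.

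**Figure D2:**
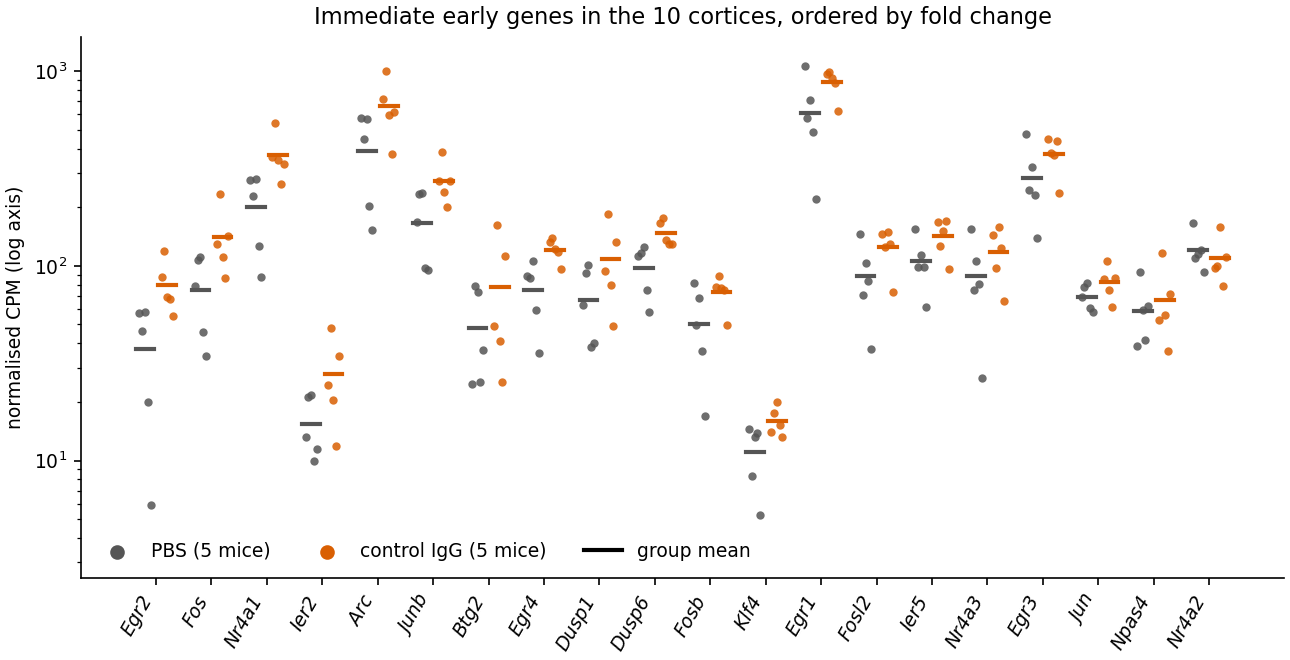
Normalised CPM (log axis) of the 20 immediate early genes in each cortex, with 5 PBS mice in grey, 5 control IgG mice in orange and bars at the group means. Genes run from the highest fold change, Egr2, to Nr4a2, the member with a lower mean in control IgG.

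Summed up per cortex as the mean log2 CPM of the 20 genes, the list was at 6.7, 6.58, 6.79, 5.99 and 5.43 in the PBS mice and at 7, 7.37, 6.93, 6.6 and 6.8 in the control IgG mice. The groups overlapped, since PBS mice 14 and 33 were above control IgG mouse 37. The median log2 fold change stayed positive with each cortex left out in turn, from 0.41 to 0.72, the lowest being without PBS mouse 74. Between 7 and 15 members were then higher at unadjusted p under 0.05, with 7 without PBS mouse 38, PBS mouse 74 or control IgG mouse 11, and 15 without PBS mouse 14. Within mice numbered 30 and over (2 control IgG, 4 PBS) the mean list level differed by 0.502 and under 20 (3 control IgG, 1 PBS) by 0.397, and in the mice numbered 30 and over alone 0 members reached an unadjusted p under 0.05. With the mouse number band as a covariate 7 members were higher and the median was 0.46.

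The sequence upstream of these genes is shown because they share a known regulator. Cyclic AMP response element binding protein (CREB), which activates these genes after calcium entry, is known to bind the octamer TGACGTCA and its shorter core TGACG, which reads CGTCA on the other strand. Of the 20 members, 16 had a RefSeq promoter window (GRCm38.p6) and 12 of these held TGACG or CGTCA in the 250 bases before the transcription start, against 19.8% of 27025 genes with such a window. The full TGACGTCA was in 2 of 16, against 1.77% of genes, and the serum response motif known as the CArG box in 1 of 16, against 1.62%. Both strands were searched, a gene counted if any of its windows held the motif, and a full octamer also counts as the core. The windows below are the 150 bases before the start of the members at unadjusted p under 0.05 that had 1 window with the core in it, with TGACG or CGTCA in capitals.
Fos, chr12:85473740-85473889, plus strand: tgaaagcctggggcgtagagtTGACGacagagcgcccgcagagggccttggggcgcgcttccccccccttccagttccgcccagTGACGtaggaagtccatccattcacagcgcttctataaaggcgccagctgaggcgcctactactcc
Junb, chr8:84978749-84978898, minus strand: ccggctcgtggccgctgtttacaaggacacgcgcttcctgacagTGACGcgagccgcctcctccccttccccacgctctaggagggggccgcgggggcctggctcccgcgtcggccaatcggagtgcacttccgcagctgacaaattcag
Egr4, chr6:85513590-85513739, minus strand: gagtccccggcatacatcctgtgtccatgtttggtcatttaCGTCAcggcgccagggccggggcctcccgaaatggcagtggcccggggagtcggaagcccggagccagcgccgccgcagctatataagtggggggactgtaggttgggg
Nr4a1, chr15:101266696-101266845, plus strand: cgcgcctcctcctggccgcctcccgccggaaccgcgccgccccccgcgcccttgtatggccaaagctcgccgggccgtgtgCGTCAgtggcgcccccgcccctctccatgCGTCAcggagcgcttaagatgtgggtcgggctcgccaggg
Dusp1, chr17:26508473-26508622, minus strand: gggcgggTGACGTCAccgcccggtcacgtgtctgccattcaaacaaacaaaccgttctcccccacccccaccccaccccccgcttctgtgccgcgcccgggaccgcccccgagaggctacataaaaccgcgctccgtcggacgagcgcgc
Counted back from the start, with -1 the base before it, the capitals began at -129 and -66 in Fos, at -106 in Junb, at -109 in Egr4 and at -69 and -40 in Nr4a1. In Dusp1 they form 1 full octamer, in which TGACG began at -143 and CGTCA at -140. Dusp6 and Ier5, also higher, held none in these 150 bases. These letters describe the windows and were not tested for binding.

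Genes that follow activity over hours showed a smaller shift of the same sign. Of 15 late activity-regulated genes 3 were higher and 0 lower, 14 were positive, and the median was 0.22, which was 0.12 without PBS mouse 74 and 0.37 without PBS mouse 14. Rgs2, which limits signalling by G proteins, was at 54.3, 54.9, 56.3, 40.7 and 48.2 CPM in PBS and 67.8, 74, 58, 64.9 and 56.3 CPM in control IgG, a log2 fold change of 0.33 (0.16 to 0.50) with an adjusted p of 0.399 by edgeR and overlap between PBS mouse 33 and control IgG mouse 75. Rgs2 was among the 11 genes that DESeq2 gave an adjusted p under 0.05 (0.0492). Nptx2, a synaptic pentraxin, gave 0.51 (0.06 to 0.96) and the stress response gene Gadd45b 0.51 (0.17 to 0.85). Homer1 and Bdnf, which encode a synaptic scaffold and a growth factor, gave 0.25 (-0.40 to 0.89) and 0.41 (-0.06 to 0.88). PBS mouse 14 and control IgG mouse 75 crossed the groups here, at list levels of 6.13 and 5.69 log2 CPM.

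Neuropeptide genes differed in both directions. Of 14 members 6 were higher and 1 was lower, with a median of 0.20, which was 0.12 without PBS mouse 38 and 0.31 without PBS mouse 14. The 6 were Crh, the peptide of the stress axis that cortical interneurons also make (0.63, 0.22 to 1.03), Pdyn, the precursor of dynorphin (0.50), Vip, which marks interneurons that inhibit other interneurons (0.43), Tac2 (0.41), Adcyap1 (0.37) and Cck (0.28). Vip was at 53.6, 48.5, 54.3, 34.5 and 49.7 CPM in PBS and 74.5, 73.2, 52.5, 67.2 and 56.4 CPM in control IgG, and overlapped through control IgG mouse 15. The lower member was Nts, encoding neurotensin, at 2.16, 3.78, 3.13, 2.87 and 3.33 CPM in PBS and 0.563, 0.586, 2.5, 0.632 and 2.13 CPM in control IgG (log2 fold change -1.19, -2.05 to -0.32). Control IgG mice 10, 11 and 37 lay under 1 CPM for Nts, whereas mice 15 and 75 lay at or near the PBS range. Npy and Sst gave 0.16 (-0.10 to 0.42) and -0.15 (-0.33 to 0.03).

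Markers of cortical layers split by depth. Of 10 upper layer genes 3 were higher, 0 lower and 9 positive, with a median of 0.24. Of 12 tested deep layer genes 0 were higher, 4 lower and 11 negative, with a median of -0.17. Lamp5, which marks superficial neurons, was at 168, 144, 159, 108 and 151 CPM in PBS and 225, 251, 153, 227 and 151 CPM in control IgG (log2 fold change 0.46, 0.11 to 0.81). Rorb, the layer 4 nuclear receptor, gave 0.36 (0.12 to 0.61), and Rasgrf2, an exchange factor of upper layers, 0.28 (0.04 to 0.52).

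Bcl11b, the transcription factor of subcortically projecting neurons, was at 90.7, 88.2, 84.3, 88.8 and 81.9 CPM in PBS and 57.5, 50.8, 87.4, 58.4 and 74.4 CPM in control IgG (log2 fold change -0.40, -0.66 to -0.14). Crym, Etv1 and Tle4, which mark layers 5 and 6, gave -0.49, -0.28 and -0.17, while Fezf2, which specifies the same neurons, gave -0.07 (-0.42 to 0.27). For Bcl11b the control IgG mice fell into a lower set of 10, 11 and 37 and a set of 15 and 75 nearer PBS, as they did for Nts. The same mice parted in the list levels, since mice 10, 11 and 37 were above every PBS mouse for upper layer genes and below every PBS mouse for deep layer genes, and mice 15 and 75 were inside the PBS range for both lists. This division of the control IgG mice was seen in the values, was not labelled, and was not tested. Leaving out 1 cortex at a time, the number of lower deep layer genes ran from 1 to 6, and it was 1 without PBS mouse 32 or 74 or without control IgG mouse 11 or 37, and 2 without control IgG mouse 10 or 15.

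Myelin genes had the deep layer pattern. All 14 members were negative, 1 was lower (Myrf, the transcription factor of myelinating cells, -0.37, -0.73 to -0.01) and 0 were higher, with a median of -0.30, which was -0.16 without control IgG mouse 11 and -0.40 without mouse 75. Mbp, the myelin basic protein, was at 1681, 1512, 1266, 1647 and 1623 CPM in PBS and 1160.4, 803, 1594, 1123 and 1459 CPM in control IgG (log2 fold change -0.33, -0.71 to 0.05). Mouse 11 was the lowest of the 10 cortices for each of the 14 genes, mice 37 and 10 had the next lowest list levels, and mice 15 and 75 were within the PBS range for Mbp. Oligodendrocyte precursor genes gave a median of -0.059 with 0 of 8 at unadjusted p under 0.05, and the median was -0.028 without control IgG mouse 11, -0.091 without mouse 10 and -0.11 without mouse 75. In bulk tissue fewer cells of a type, less RNA per cell and a piece of cortex cut at another depth or with less white matter cannot be told apart. Of the mice low for myelin, 11 and 10 had the highest immediate early gene levels and 37 the lowest of the control IgG group.

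**Figure D3:**
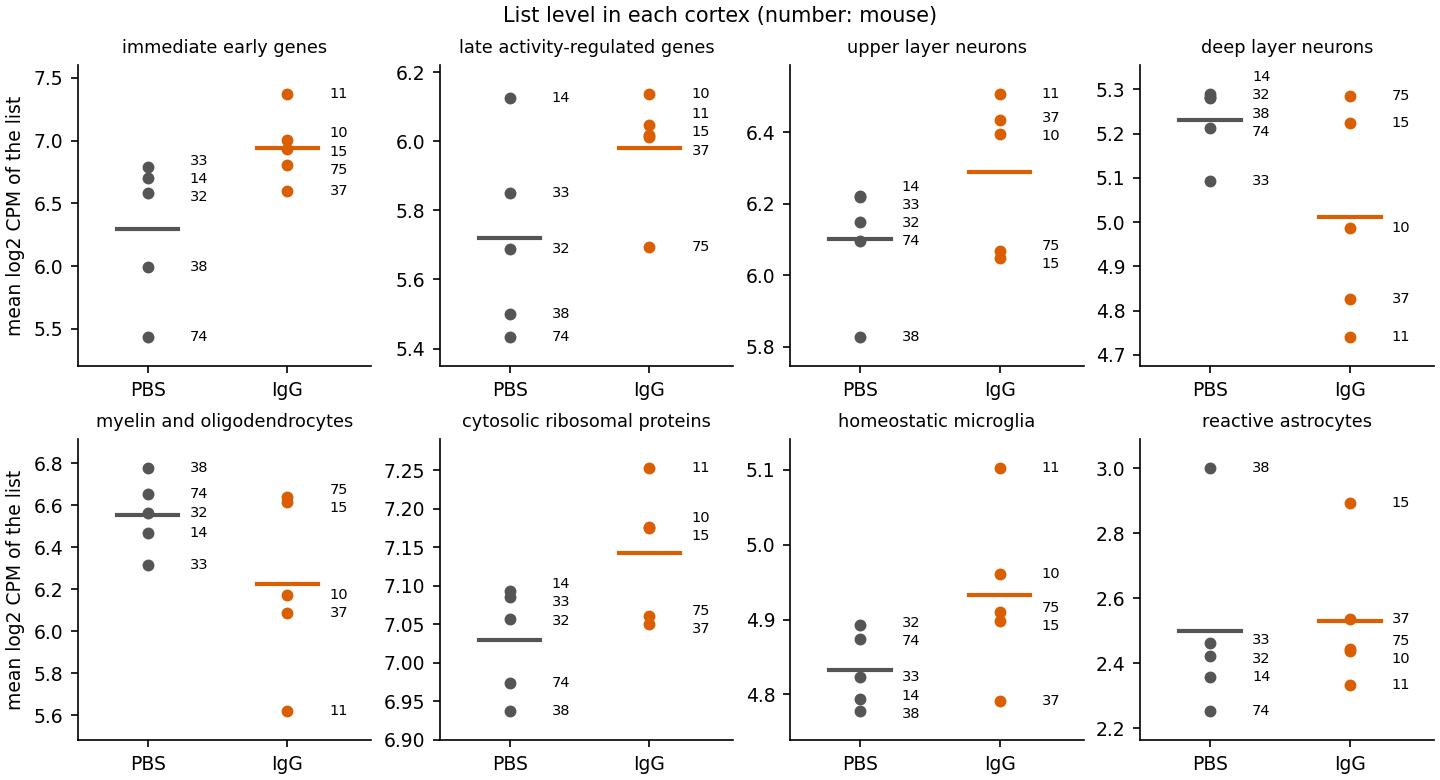
Mean log2 CPM of 8 gene lists (vertical axes, each with its own range) in each PBS (grey) and control IgG (orange) cortex, with bars at group means and mouse numbers beside the points. Control IgG mice 10, 11 and 37 part from mice 15 and 75 for upper layer, deep layer and myelin genes, and for reactive astrocyte genes PBS mouse 38 (3.001) and control IgG mouse 15 (2.89) are the highest.

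Markers of neighbouring tissue were also examined. Striatal genes had 0 higher and 1 lower of 10 (Drd2, the D2 dopamine receptor, -0.61, -1.15 to -0.07) with a median of -0.16, and hippocampal genes 0 of 11 with a median of -0.18, which was -0.11 without control IgG mouse 37 and -0.32 with the mouse number band as a covariate. Cerebellar genes had 3 of 7 higher, namely Cbln3, Pcp2 and Car8, and control IgG mouse 37 was the highest cortex for each. Cbln3, a granule cell gene, was at 14.8 CPM there and between 0.469 and 1.5 CPM in the other 9 cortices, and Pcp2, a Purkinje cell gene, was at 1.26 CPM against at most 0.432 CPM. The pituitary list ranged widely in both groups, with mean log2 CPM of -1.25 to 2.41 in PBS and -1.01 to 2.38 in control IgG. The part of dissected neighbouring tissue in other results was not tested.

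The genes through which an antibody would be sensed gave no call. Of 8 IgG Fc receptor genes 0 were at unadjusted p under 0.05, 7 were positive and the median was 0.15. That median was 0.25 without PBS mouse 38, 0.089 without PBS mouse 74 and 0.087 without control IgG mouse 15. In the mice numbered 30 and over it was 0.024. Fcgr3, an activating receptor, was at 12.8, 9.52, 11.9, 13.5 and 10.5 CPM in PBS and 13.8, 15, 15, 11 and 11.6 CPM in control IgG (log2 fold change 0.19, -0.09 to 0.47). Fcgr2b, the inhibitory receptor, gave 0.39 (-0.14 to 0.93), and Fcgrt, the neonatal Fc receptor that recycles IgG, 0.10 (-0.25 to 0.45). For 7 of the 8 the interval lay inside a 2-fold change.

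Of 18 complement genes 0 were higher and 1 was lower, with a median of 0.089, which was 0.17 without PBS mouse 38 and 0.046 without control IgG mouse 15. C1qa, C1qb and C1qc, the microglial subunits that recognise bound antibody, gave 0.08 (-0.19 to 0.36), 0.22 (-0.04 to 0.47) and 0.22 (-0.07 to 0.50). The lower gene was Itgax, a complement receptor subunit and marker of reactive microglia, at 0.438, 0.473, 0.605, 0.568 and 0.44 CPM in PBS and 0.282, 0.213, 0.4, 0.105 and 0.333 CPM in control IgG. Every control IgG cortex lay below every PBS cortex, as for 0.834% of all tested genes, and all 10 cortices held it under 1 CPM.

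Homeostatic microglial genes had narrow limits. Of 12 homeostatic microglial genes 0 were at unadjusted p under 0.05, the median was 0.12, and every interval lay inside a 1.5-fold change. That median was 0.078 without control IgG mouse 11 and 0.0099 in the mice numbered 30 and over. P2ry12, the purine receptor lost when microglia react, gave -0.01 (-0.35 to 0.32) and Csf1r, the receptor they need to survive, 0.11 (-0.09 to 0.32). Of 12 genes shared by myeloid cells 10 were positive and 0 were at unadjusted p under 0.05, with a median of 0.15, which was 0.085 without control IgG mouse 11 and 0.018 in the mice numbered 30 and over. Of 16 genes of disease-associated microglia 3 were higher and 1 lower, around a median of -0.002, which ran from -0.018 to 0.029 with 1 cortex left out. The 3 were the lipid receptor Trem2 (0.26, 0.02 to 0.51), the lipase Lpl (0.46, 0.01 to 0.91) and the lysosomal protease Ctsb (0.11, 0.01 to 0.21), and the lower was Itgax again.

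Astrocyte genes gave no call. All 14 homeostatic members had intervals inside a 1.5-fold change, with a median of 0.024 that ran from 0.0048 to 0.052 with 1 cortex left out and was -0.05 in the mice numbered 30 and over. Of 15 reactive members 0 were at unadjusted p under 0.05, with a median of 0.027 and 10 intervals inside a 2-fold change. The reactive median was 0.24 without PBS mouse 38 and -0.029 without control IgG mouse 15. Gfap, the filament protein of reactive astrocytes, was at 243, 219, 244, 386 and 237 CPM in PBS and 237, 189, 333, 223 and 284 CPM in control IgG (log2 fold change -0.07, -0.55 to 0.41). The highest Gfap value was in PBS mouse 38.

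Immune signal genes gave wider limits. Type I interferon response genes had 0 of 20 at unadjusted p under 0.05 (median 0.067), MHC class I genes 0 of 12 (median 0.14) and MHC class II genes 0 of 7 (median 0.15). Intervals inside a 2-fold change were found for 11 of the interferon genes, 10 of the MHC class I genes and 3 of the MHC class II genes. These medians turned on single cortices. The MHC class II median was 0.71 without PBS mouse 38 and -0.21 without control IgG mouse 15, the MHC class I median 0.21 and 0.063, and the interferon median 0.19 and 0.028, with -0.0051 without control IgG mouse 75. PBS mouse 38 and control IgG mouse 15 had the highest list levels of their groups for meningeal fibroblast genes (5.51 and 4.92 log2 CPM). The same held for border macrophage genes (1.87 and 1.45). Control IgG mouse 75 was close behind mouse 15, at 4.85 and 1.40. The part of meningeal tissue in the immune lists was not tested. B2m, the light chain of MHC class I, gave 0.16 (-0.06 to 0.37). Of 17 tested cytokine and chemokine genes 1 was higher and 0 were lower, and 6 had intervals inside a 2-fold change. The higher gene was Cx3cl1, the neuronal chemokine read by microglia (0.23, 0.06 to 0.40). Neutrophil and monocyte genes had a median of 0.54 with 7 of 9 positive, and 0.33 to 0.89 with 1 cortex left out, the lowest without control IgG mouse 11 and the highest without PBS mouse 38. Of these 9, 1 was higher, Ltf, the lactoferrin of neutrophil granules, at a mean of 0.13 CPM in PBS and 0.464 CPM in control IgG, and 0 of the 9 had an interval inside a 2-fold change. Endothelial and barrier genes had 0 of 14 at unadjusted p under 0.05, with all 14 intervals inside a 1.5-fold change.

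**Figure D4:**
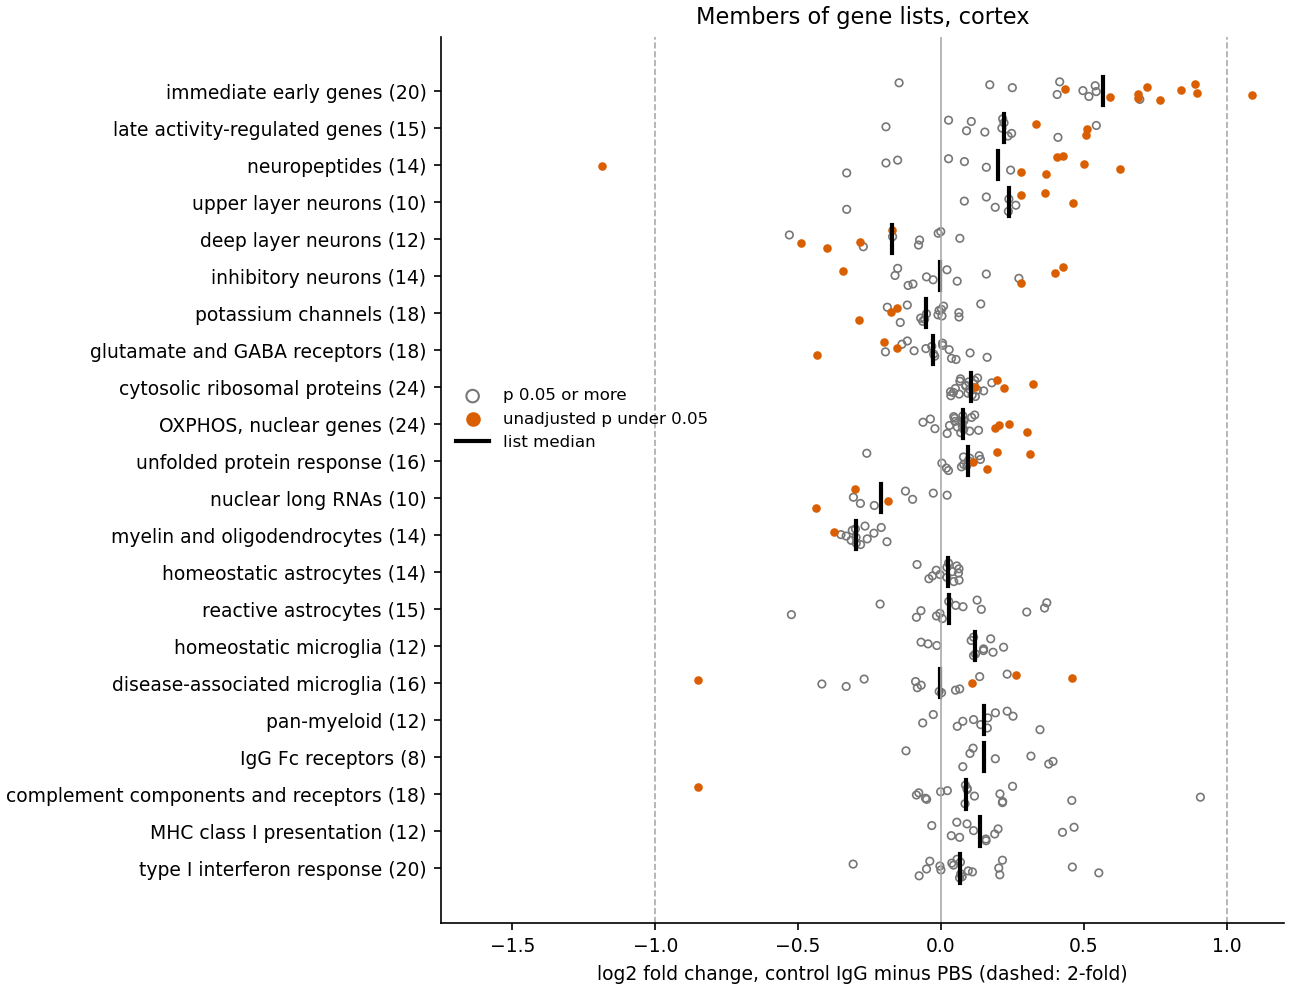
Log2 fold change of control IgG over PBS (horizontal axis) for the tested members of 22 gene lists, with each list's number of members in brackets and its median as a black bar. Orange points are at unadjusted p under 0.05 and dashed lines mark 2-fold. The immediate early gene median is at 0.57 and the myelin median at -0.30, while microglial and astrocytic medians lie within 0.15 of 0.

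Mouse immunoglobulin transcripts, which would mark antibody-producing cells of the host, made up 16.6 to 28.3 CPM of the library in PBS (median 19.9) and 22.6 to 31.6 CPM in control IgG (median 24.6). The mean was 1.26-fold higher in control IgG on a log10 scale, with p = 0.0794 in an exact permutation test, two-sided, and 0.159 adjusted over the 2 shares tested. The infused protein itself carries no RNA. PBS mouse 14 was the highest PBS library, and without it p was 0.0159 in the same exact test, whereas leaving out any other cortex gave 0.0635 to 0.159. Counts on the mitochondrial genome were 3.69% to 5.22% of the total in PBS and 3.85% to 5.53% in control IgG (exact permutation p = 0.524, two-sided, adjusted 0.524). The smallest p that 5 against 5 allows is 0.00794. Of 10 tested B cell and plasma cell genes 2 were higher and 0 lower, with a median of 0.083. That median was -0.037 without PBS mouse 74 and 0.23 without control IgG mouse 15.

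Fold changes of translation and respiration genes lay slightly above 0. All 24 cytosolic ribosomal protein genes were positive, 4 were higher, among them Rpl7, Rpl8 and Rps14, and the median was 0.10 (0.031 in the mice numbered 30 and over), and the interval of each of the 24 lay inside a 1.5-fold change. Rps14 was at 115, 141, 142, 119 and 133 CPM in PBS and 168, 196, 148, 151 and 149 CPM in control IgG (log2 fold change 0.32, 0.08 to 0.56). Its groups did not overlap, a pattern that 0.755% of all tested genes showed in this direction. Of 24 nuclear genes of oxidative phosphorylation 4 were higher, 0 lower and 21 positive (median 0.076, and 0.038 without PBS mouse 38). Ndufa4, a respiratory chain subunit, gave 0.24 (0.06 to 0.41) and Atp5e, of ATP synthase, 0.30 (0.05 to 0.56). The unfolded protein response had 4 of 16 higher and 15 positive, with Sdf2l1 at 0.31, Xbp1 at 0.20, Atf4 at 0.16 and Herpud1 at 0.11. Its median was 0.093, which was 0.16 without PBS mouse 14 and 0.032 with the mouse number band as a covariate. The proteasome had 3 of 15 higher (Psma3, Psmc3 and Psmc4). Of 10 nuclear long RNAs 3 were lower and 9 negative (median -0.21), but without PBS mouse 38, the highest cortex for the list, the median was -0.026, and without control IgG mouse 10 it was -0.12. Among these Kcnq1ot1, the antisense RNA of an imprinted domain, gave -0.44 (-0.73 to -0.14), Snhg14 -0.30 (-0.48 to -0.12) and Miat -0.18 (-0.37 to -0.00).

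These lists differ in transcript length, and length went with the fold change across abundant protein-coding genes. The 13547 protein-coding genes with a mean of 1 CPM and over were divided into 5 quintiles by the length of their merged exons in GENCODE M21. The median log2 fold change was 0.054 in the shortest quintile (243 to 2673 bases), 0.026, 0.012 and -0.0081 in the next 3, and -0.041 in the longest (7895 bases and over). At unadjusted p under 0.05, 258 of 2712 genes (9.51%) were higher and 40 (1.47%) lower in the shortest quintile, and 37 of 2710 (1.37%) were higher and 229 (8.45%) lower in the longest. For control IgG over PBS in the hippocampus the medians ran from 0.045 in the shortest quintile to -0.029 in the longest. In cortices given the study's IgLON5 antibody, compared with the same PBS cortices, they ran from 0.0029 to -0.057. The ribosomal protein genes had a median of 1752 bases, within the shortest quintile, and the nuclear long RNAs had a median of 13691 bases. The immediate early genes had a median of 3293.5 bases and the part of length in their values was not tested.

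The difference between the shortest and longest quintile in median centred log2 CPM was -0.0674, -0.0163, -0.0335, -0.125 and -0.012 in PBS mice 14, 32, 33, 38 and 74, and 0.0285, 0.101, 0.0931, -0.0349 and 0.0493 in control IgG mice 10, 11, 15, 37 and 75. Control IgG mouse 37 lay among the PBS mice and the other 4 lay above them. RNA integrity values were not used here, and the part of RNA quality in this gradient was not tested.

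**Figure D5:**
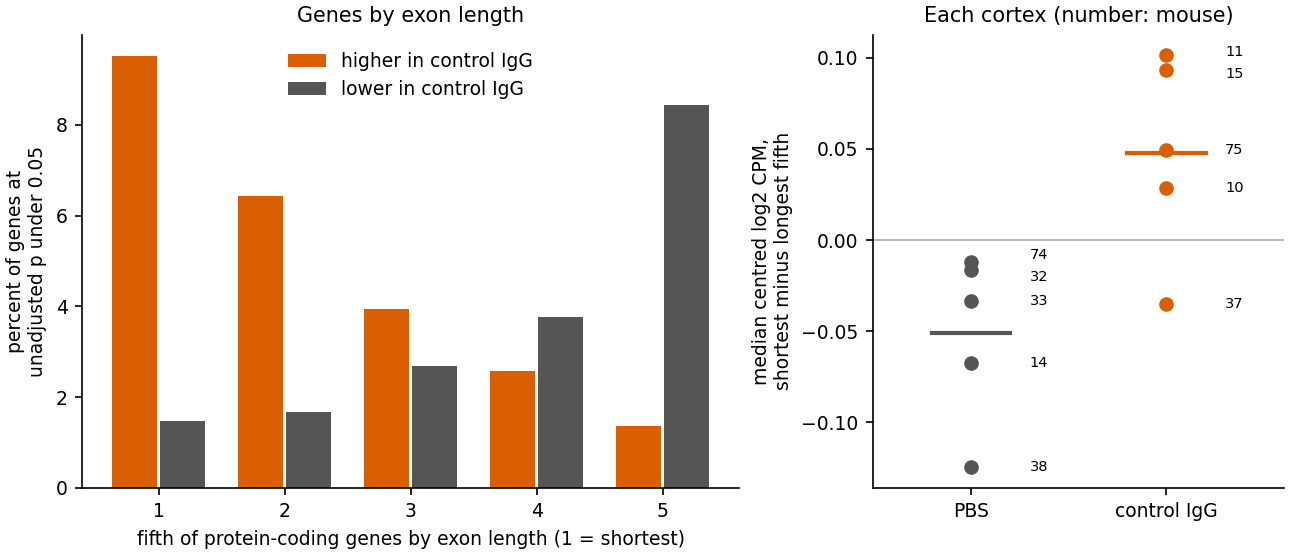
Left, percent of protein-coding genes at unadjusted p under 0.05 that were higher (orange) or lower (grey) in control IgG, by quintile of exon length from shortest (1) to longest (5), running from 9.51% and 1.47% to 1.37% and 8.45%. Right, median centred log2 CPM of the shortest minus the longest quintile in each cortex, with bars at group means.

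The median exon length was 7578.5 bases for potassium channels, 7644 bases for glutamate and GABA receptors and 10506 bases for the IgLON family, and the part of length in their values was not tested. Of 18 potassium channel genes 0 were higher and 3 lower, Kcna3 (-0.29), Kcnd3 (-0.17) and Kcnma1 (-0.15), and the interval of each of the 18 lay inside a 1.5-fold change. Of 18 glutamate and GABA receptor genes 0 were higher and 3 lower, the GABA receptor subunit Gabra5 (-0.43, -0.75 to -0.11), the metabotropic receptor Grm5 (-0.20) and the kainate receptor Grik2 (-0.15). The cell adhesion genes of the IgLON family, to which the antigen of the study's disease antibody belongs, had 1 of 5 lower, Lsamp (-0.20, -0.35 to -0.06). Mapt, which encodes Tau, gave -0.02 (-0.13 to 0.08), and all 19 Tau and Tau kinase genes had intervals inside a 1.5-fold change. Inhibitory neuron genes had 3 higher (Pvalb, Vip and Cck) and 1 lower (Reln) of 14, with 7 positive and a median of -0.0031, against 3.84% and 4.3% of all genes. Pvalb, of fast-spiking cells, gave 0.40 (0.17 to 0.63) and Reln, a secreted glycoprotein, -0.34 (-0.65 to -0.03), while Gad1 and Gad2, the GABA synthesising enzymes, gave 0.06 and -0.03.

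The genes with the smallest p and no overlap between groups ranged in log2 fold change from -1.58 to 0.97. Each had an adjusted p of 0.399 by edgeR. Of all tested genes, 153 (0.755%) had every control IgG cortex above every PBS cortex, and 169 (0.834%) had every one below. Above in all 5 control IgG cortices were Rheb, the GTPase that activates mTOR complex 1 (0.20, 0.10 to 0.29), Gmppb (0.37), Mir132 (0.97), Spcs3, a subunit of the signal peptidase (0.23), Wdyhv1 (0.24), the translation initiation subunit Eif3k (0.21), the beta-1 adrenergic receptor Adrb1 (0.46, 0.21 to 0.70) and Elof1 (0.21). Rheb was at 111, 105, 112, 97.3 and 105 CPM in PBS and 129.5, 124, 119, 115 and 119.9 CPM in control IgG. Adrb1 was at 46.1, 50.6, 50.5, 32.6 and 34.7 CPM in PBS and 64.2, 68.3, 53.1, 52.7 and 56 CPM in control IgG, with PBS mice 38 and 74 the lowest, as for Fos and Junb.

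Mir132, the locus of a microRNA that CREB is known to induce in active neurons, was at 0.658, 1.06, 0.639, 0.757 and 0.44 CPM in PBS and 1.44, 1.6, 1.39, 1.44 and 1.13 CPM in control IgG (log2 fold change 0.97, 0.49 to 1.45). Poly(A)-selected libraries do not capture the mature microRNA. The counts come from longer RNA that crosses the hairpin, and the locus lies inside the transcript 1700016P03Rik on the same strand, from which it cannot be told apart. The mature arm is shown to identify the locus, with its seed (bases 2 to 8) in capitals, from RefSeq (GRCm38.p6).
mmu-miR-132-3p: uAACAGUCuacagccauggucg

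Below in all 5 control IgG cortices were Tmem150c (-0.37, -0.52 to -0.22), Clmn (-0.28), Nav1 (-0.27), Dock9, an exchange factor for Cdc42 (-0.31), St6galnac5, a sialyltransferase (-0.42), the cation channel Trpc5 (-0.42), Nos1, the neuronal nitric oxide synthase (-0.41, -0.62 to -0.19) and the orphan receptor Gpr101 (-1.58, -2.42 to -0.75). Tmem150c, the gene with the smallest p of all, was at 50.2, 43.6, 42.8, 48.5 and 46.6 CPM in PBS and 34.1, 32.5, 40.2, 34.5 and 37.4 CPM in control IgG, and its antisense partner Tmem150cos overlaps it. Gpr101 was at 4.6, 6.18, 5.61, 6.9 and 6.02 CPM in PBS and 1.44, 1.7, 2.59, 0.491 and 3.43 CPM in control IgG. Mouse 37 was the lowest and mouse 75 the highest of the control IgG cortices for Gpr101. Of these 16 genes, DESeq2 gave Rheb, Spcs3, Tmem150c, Clmn, Nav1, Dock9 and St6galnac5 an adjusted p under 0.05.

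The hippocampi of the same 2 treatments (4 control IgG, 5 PBS) gave 13 genes past both thresholds, 10 higher (0.0493% of tested genes) and 3 lower (0.0148%). In the cortex 1 of the 13 was at unadjusted p under 0.05, Hc, the complement component C5. Its log2 fold change was -1.27 (-2.29 to -0.26) in the cortex against 2.58 in the hippocampus. In the cortex Hc was at a mean of 0.997 CPM in PBS and 0.401 CPM in control IgG, and the groups overlapped. Igfn1 and Fhod3 gave 0.13 and 0.05 in the cortex against 2.04 and 1.11. The difference between tissues, tested as an interaction in edgeR, reached an adjusted p under 0.05 for 0 genes, the smallest being 0.252. Unadjusted, 1561 genes (7.7%) were under 0.05, and DESeq2 gave 8 at the adjusted threshold. For the immediate early genes the medians were 0.57 in the cortex and 0.48 in the hippocampus, where 6 of 20 were higher and 0 lower (7% and 6.96% of all genes), and the interaction gave an unadjusted p under 0.05 for 2, Jun and Nr4a2. The myelin medians were -0.30 and 0.24, and for 3 of 14 members, Aspa, Ugt8a and Sox10, the interaction had an unadjusted p under 0.05, with 0.55 the smallest adjusted p by edgeR. The 2 hippocampal groups also differed in markers of tissue identity. Hippocampal genes had a median of -0.72 with 0 of 11 higher and 9 lower, and pituitary genes -3.60 with 0 of 5 higher and 4 lower. Cortical genes had a median of 0.29 with 5 of 10 higher and 0 lower, and thalamic genes 0.57 with 5 of 8 higher and 0 lower. The part of dissected neighbouring tissue in the hippocampal values was not tested.

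The IgLON5 antibody cortices (4 mice) were compared with the same 5 PBS cortices, so both comparisons share their controls. The IgLON5 mice were numbered 8, 9, 16 and 17, all under 20, whereas among the PBS mice only mouse 14 was. The part of the number band in this comparison was not tested. There 454 genes were called up (2.24%) and 1 down (0.00493%). The median log2 fold change of those 454 genes was 2.26 with the IgLON5 antibody and 0.15 with control IgG, where 7 were higher and 1 lower at unadjusted p under 0.05 and 178 had an interval inside a 2-fold change. Type I interferon genes had medians of 1.92 with the IgLON5 antibody and 0.067 with control IgG, and complement genes 1.28 and 0.089. Myelin genes had medians of -0.37 with the IgLON5 antibody, where 5 of 14 were lower, and -0.30 with control IgG, where 1 was. For immediate early genes the medians were 0.16 and 0.57. With the IgLON5 antibody 0 of the 20 immediate early genes were higher and 0 lower at unadjusted p under 0.05 (6.23% and 3.03% of all genes), against 10 and 0 with control IgG, and the difference between the antibodies was not tested.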

How the data were processed

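Cortex RNA was sequenced as paired-end reads from TruSeq Stranded mRNA libraries. The authors aligned reads to GRCm38 with STAR and deposited raw counts per Ensembl gene. The counting program, annotation and strand setting are not given in the sources used here. Symbols and exon lengths came from GENCODE M21, promoters and the microRNA from RefSeq GRCm38.p6.

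A gene was kept when 4 or more of the 27 libraries held 10 or more deposited counts of it (20271 genes). Counts were scaled by TMM and tested with edgeR 4.0.16 (quasi-likelihood, 6 groups, R 4.3.3), with Benjamini-Hochberg adjustment over all genes. Intervals are 95%. List levels used log2 CPM with a prior count of 1. The procedure was tested on simulated data. DESeq2 1.42.0 was an alternative. Shares were compared with exact permutation tests (SciPy 1.17.1).

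Named genes were the members of the gene lists, the genes with the smallest p, at least 1 CPM and no overlap between groups, and the genes called in hippocampus. The comparison, the members and the lists were chosen with earlier results of these data known. Replicates are taken as separate mice. No files or samples of the 10 cortices were left out, and some single genes are not reported here.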

Additional observations from a re-analysis of the deposited data

Results flagged for a closer look

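Single libraries lay far from the rest of their group of 5 in 8 of 50 group and measure combinations examined. Chance alone would give about 1 in 20 if the combinations were independent. They share the same libraries, and several of the 8 fell on PBS mouse 38, so the 8 cannot be set against that share. In PBS, mouse 14 had the highest share of immunoglobulin transcripts (28.3 CPM, the next 19.95 CPM) and the highest mitochondrial share (5.22% of counts, the next 3.97%). PBS mouse 38 had the highest mean log2 CPM for complement genes (2.66, the next 2.23), MHC class I genes (3.08, the next 2.71) and reactive astrocyte genes (3.001, the next 2.46), and the lowest for nuclear oxidative phosphorylation genes (6.53, the next 6.68). In control IgG, mouse 11 had the highest mitochondrial share (5.53% of counts, the next 4.25%), and mouse 75 the lowest mean log2 CPM for late activity-regulated genes (5.69, the next 6.01).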

How the results depend on the processing

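No gene was called with edgeR under the other size factors, filters, sets of libraries, the mouse number band as a covariate, or with any 1 cortex left out. DESeq2 gave 11 genes at an adjusted p under 0.05 in the cortex and 8 for the difference between tissues. In the mice numbered 30 and over (2 control IgG, 4 PBS) edgeR called 4 genes up, Gm28437, Gm28661, Gm29216 and Gm13340, named after their values were seen, and 4 reached the adjusted p. These predicted genes may share reads with mitochondrial sequence and are uncertain. There 356 genes were higher and 505 lower at unadjusted p under 0.05, with 0 immediate early, 1 upper layer and 1 deep layer gene, and the band as a covariate also left 1 deep layer gene. With 1 cortex left out the genes higher ran from 492 to 992 (492 without PBS mouse 38, 504 without control IgG mouse 11, 509 without control IgG mouse 10), those lower from 661 to 1032, and the deep layer genes from 1 to 6. With genes kept from 1 count on, 42.4% of intervals lay inside 2-fold and 33.3% inside 1.5-fold, with a median distance to the edge of 1.13, as rarer genes enter. The immunoglobulin difference ran from 0.0772 to 0.135 on the log10 scale (0.135 without PBS mouse 14), and the mitochondrial difference from -0.135 to 0.454 percentage points, negative without control IgG mouse 11. Of 5440 values of 303 named genes under the alternatives, 8 passed the adjusted threshold, all with DESeq2, and 261 values of 86 genes changed sign, 0 of them among the 94 genes at unadjusted p under 0.05.

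The mouse number as a replicate block could be used for the difference between tissues alone, and it left 0 genes at an adjusted p under 0.05. Deviations of same-numbered cortex and hippocampus correlated at -0.127 to 0.451 over 9 numbers, 6 were over 0.1, and 5 correlated best with their own number. Within the cortex no number occurs in both groups.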

Other observations

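Other lists had few members at unadjusted p under 0.05. Of 9 neurofilament and axon injury genes 2 were higher and 0 lower, Nefl, the light neurofilament subunit (0.23, 0.03 to 0.43), and Atf3, a transcription factor induced by injury, with 4 of 9 positive and a list median of -0.01, which ran from -0.076 to 0.042 with 1 cortex left out, the lowest without control IgG mouse 15 and the highest without PBS mouse 33. Atf3 was at 1.41, 0.946, 1.24, 0.631 and 0.77 CPM in PBS mice 14, 32, 33, 38 and 74 and at 2.32, 3.3, 2.21, 1.05 and 2.19 CPM in control IgG mice 10, 11, 15, 37 and 75 (log2 fold change 1.14, 95% interval 0.40 to 1.88). Control IgG mouse 37 lay inside the PBS range and the other 4 lay above it.

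Of 13 heat shock and cold response genes 2 were higher and 0 lower, the chaperone genes Hspa1a (0.39, 0.00 to 0.78) and Dnajb1 (0.27, 0.05 to 0.50), with 9 positive and a median of 0.064, which was 0.12 without PBS mouse 14 and 0.036 without PBS mouse 38. Of 15 clock output genes 1 was higher, Ciart, a repressor of the clock (0.39, 0.08 to 0.71). For Ciart every control IgG cortex lay above every PBS cortex, as for 0.755% of all tested genes. The list median was 0.06, which was 0.004 without control IgG mouse 37 and 0.11 without PBS mouse 14. Of 14 glucocorticoid response genes 0 were at unadjusted p under 0.05 (median 0.068, and -0.0058 without control IgG mouse 75). Cholesterol synthesis genes had 0 of 16 at unadjusted p under 0.05, with all 16 intervals inside a 1.5-fold change. Each of these genes had an adjusted p over 0.05 by edgeR.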
